A study of Mus musculus with 2 samples.

Results

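miR-191 and miR-425 are microRNAs (miRNAs), small RNAs that guide Argonaute proteins to complementary messenger RNAs, whose hairpins Mir191 and Mir425 lie close together on the same strand. They were taken as every row of both count files whose name begins with mmu-miR-191- or mmu-miR-425-. This gave 3 mature arms, mmu-miR-191-5p, mmu-miR-191-3p and mmu-miR-425-5p (mmu- for mouse, dropped from here on), of 197 named miRNAs listed in either library. Replicate 2 listed miR-191-5p and miR-425-5p, and replicate 1 listed miR-191-5p and miR-191-3p. miR-425-3p was listed in neither. Small RNA had been sequenced from liver of wild-type mice of the C57BL/6 strain, which were 2 to 3 months of age and fed ad libitum. They form 1 group of 2 replicates, and no second condition was available to set them against. The labels do not say whether each replicate was a different animal, so differences between replicates may be technical only.

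A miRNA hairpin is cut from its primary transcript by Drosha and trimmed by Dicer to a duplex, of which usually a single arm is kept in Argonaute and the other is degraded. Hairpins on a shared primary transcript are made together, but each is then processed and its products turned over separately. miR-191-5p is found in many tissues and has often been used as a reference miRNA in quantitative assays. In human cells miR-425-5p has been reported to target NPPA, the atrial natriuretic peptide gene, and the human hairpins lie in an intron of DALRD3. That gene encodes a protein which in human cells takes part in methylating an arginine tRNA.

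The mature sequences are shown because the seed, bases 2 to 8, sets most of the targeting. The full sequence bears on whether reads could be confused with those of a relative. All are RefSeq sequences on build GRCm38, with the seed in capitals.
miR-191-5p: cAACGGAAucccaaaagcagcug
miR-191-3p: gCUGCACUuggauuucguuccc
miR-425-5p: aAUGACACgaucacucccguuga
miR-425-3p: aUCGGGAAugucguguccgcc
miR-489-3p: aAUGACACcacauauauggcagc

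None of these mature arms of Mir191 and Mir425 shared its seed with another miRNA listed in the liver libraries. The comparison covered 170 of the 197 listed names, those with a RefSeq entry, and the rest were not compared. Among all 1679 mature names in the RefSeq table, the seed of miR-425-5p also occurred in miR-489-3p, which was listed in neither library. The other 3 seeds were each held by no other name. The closest listed seed to that of miR-425-5p was in miR-183-5p, with 1 mismatch, A5G counted from the 5′ end of the mature miRNA. For miR-191-5p the closest listed seed had 2 mismatches, and for miR-191-3p 1 mismatch, in miR-345-3p. Each full mature sequence occurred in 1 of the 1005 RefSeq hairpins, so neither miRNA has a second annotated copy that could take its reads. miR-489-3p, miR-183-5p and miR-345-3p are named here after the seeds had been compared.

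Mir191 lay on chromosome 9, plus strand, chr9:108568319-108568392 (GRCm38), and Mir425 at chr9:108568777-108568861. The hairpins were thus 74 and 85 bases long, with 384 bases between them. Their RefSeq sequences are shown with the mature arms in capitals, so that the arm each library listed can be placed in its hairpin.
Mir191: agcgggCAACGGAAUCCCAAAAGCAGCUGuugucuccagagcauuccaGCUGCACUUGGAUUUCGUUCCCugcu
Mir425: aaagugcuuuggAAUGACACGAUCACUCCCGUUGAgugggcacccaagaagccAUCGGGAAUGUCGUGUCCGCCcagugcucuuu

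The annotation of the shared transcript depended on the source. The deposited files placed the rows of both hairpins in an exon of the long non-coding RNA 4833445I07Rik and called their locus type intergenic. In GENCODE M21 the transcript 4833445I07Rik-201 is a single exon of 1642 bases (chr9:108567533-108569174, plus strand) that holds both hairpins. In the second transcript, 4833445I07Rik-202, the Mir191 hairpin lies between exon 1 and exon 2, and Mir425 starts past the end of exon 2 at base 108568774. The protein-coding gene Dalrd3 starts 1024 bases after the end of Mir425 in GENCODE M21. In RefSeq on the same build, Dalrd3 begins 835 bases before Mir191 and spans both hairpins. A further GENCODE miRNA gene, Gm24083, overlaps Mir191 on the minus strand, while the listed loci of the miR-191 arms were on the plus strand.

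**Figure D1:**
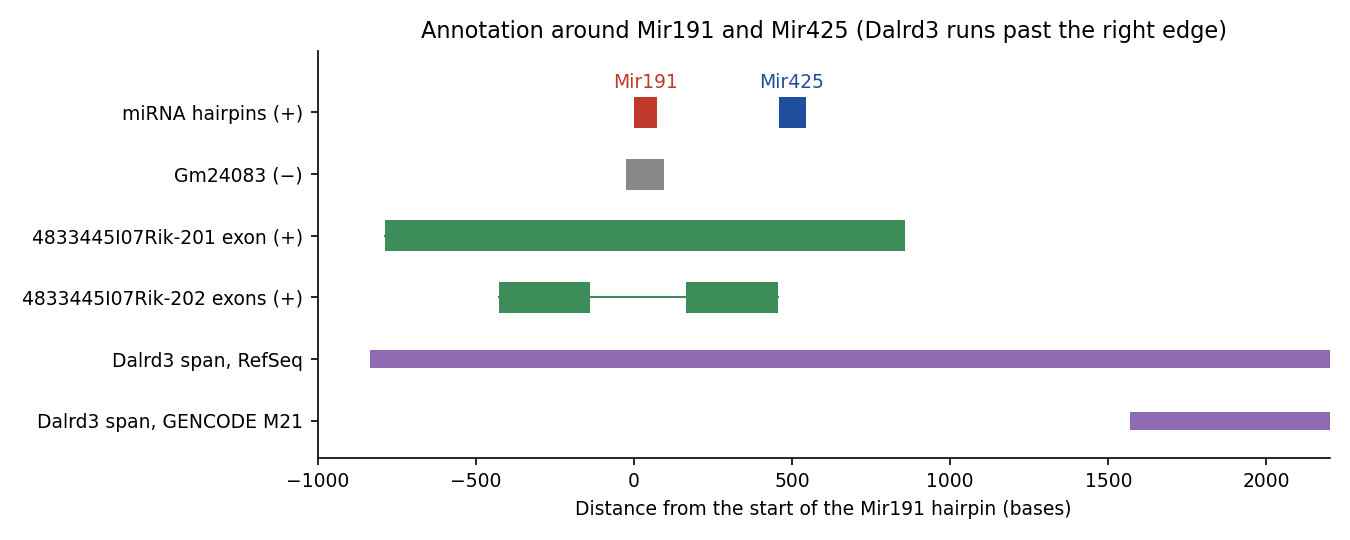
Annotated features around the hairpins, by distance in bases from the start of Mir191 on the horizontal axis. Boxes are hairpins, exons or gene spans. The exon of 4833445I07Rik-201 and the RefSeq span of Dalrd3 cover both hairpins, while the GENCODE span of Dalrd3 begins 1024 bases after Mir425.

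This kind of host was uncommon but held many counts. In replicate 2, 11 of 187 named loci lay in an exon of a long intergenic non-coding RNA, and in replicate 1, 13 of 168. These came from 8 hairpins in each library and held 23.9% of named locus counts in replicate 2 and 20.4% in replicate 1. Mir191 alone made up 19.7% of those counts in replicate 2 and 23.9% in replicate 1. All of these loci were called intergenic in the files.

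miR-191-5p, the retained arm of Mir191, was among the 5 most counted miRNAs of the fed liver. Its count was 25347 in replicate 2 and 15018 in replicate 1. These are raw read counts per called locus, from libraries whose named miRNAs summed to 538023 counts in replicate 2 and 306351 in replicate 1. As a share of named miRNA counts it stood at 4.71% in replicate 2 (exact Clopper-Pearson 95% interval 4.65 to 4.77) and at 4.90% in replicate 1 (4.83 to 4.98). Intervals cover counting error only. They treat reads as independent, and reads without molecular identifiers are not independent molecules, so the intervals may be too narrow. The mean was 4.81% ± 0.135 (SD, n = 2).

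The place of miR-191-5p in the order was rank 4 of 183 names in replicate 2 and rank 5 of 165 in replicate 1. Directly above it stood miR-26a-5p with 32150 counts in replicate 2, and miR-30a-5p with 15347 in replicate 1. Directly below it stood miR-181a-5p with 22351 counts in replicate 2, and miR-30d-5p with 13695 in replicate 1. By mean share, miR-26a-5p was higher (6.19% ± 0.309) in both libraries. miR-30a-5p (4.54% ± 0.668) was below miR-191-5p in replicate 2 and above it in replicate 1, so the order of these neighbours was not fixed beyond the spread between libraries. miR-30d-5p (4.09% ± 0.538) was lower in both.

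miR-425-5p was far lower, with 153 counts in replicate 2. This was 0.0284% of named miRNA counts (95% interval 0.0241 to 0.0333) and rank 76 of 183 names, above 58.5% of the names listed there. Its neighbours in the order were miR-183-5p with 157 counts and miR-92a-1-5p with 136, and counting error alone spans all 3. Since it was listed in 1 library, its level has no replicate.

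**Figure D2:**
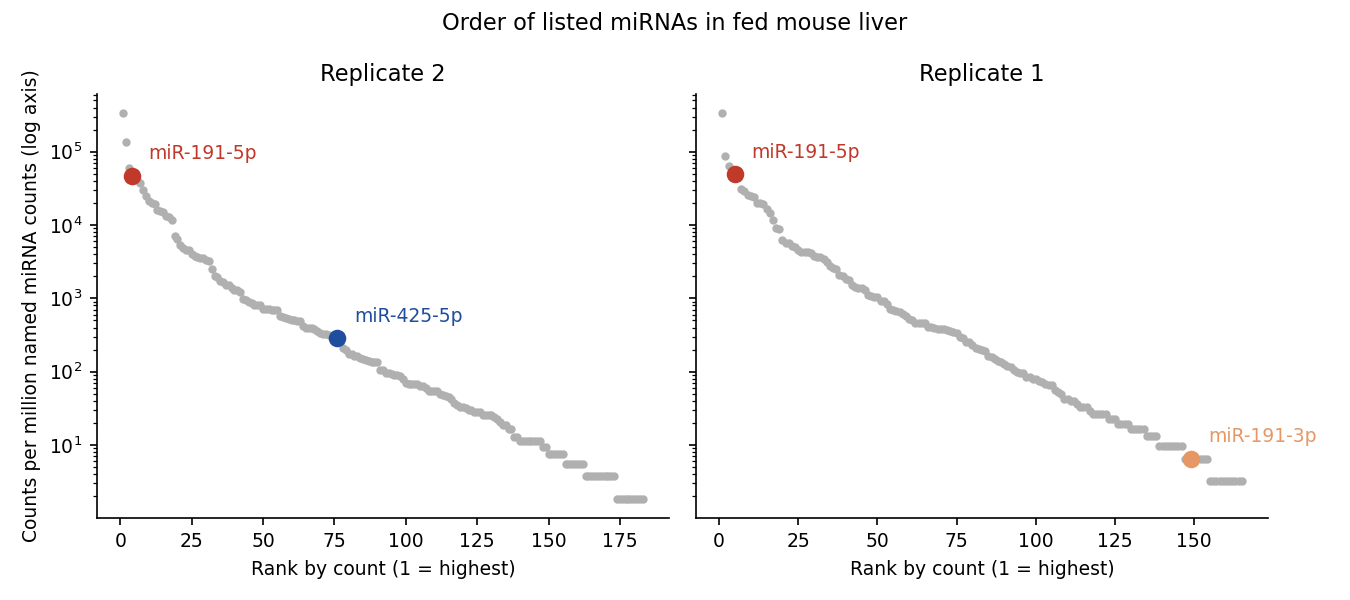
Levels as counts per 1000000 named miRNA counts (CPM; vertical, log axis) against rank (horizontal) for every named miRNA listed in replicate 2 (left) and replicate 1 (right). Each point is 1 miRNA. miR-191-5p sits at rank 4 and rank 5, miR-425-5p at rank 76 in replicate 2, and miR-191-3p shares rank 147 in replicate 1.

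The level gap between the co-transcribed hairpins was 166-fold in replicate 2, with 25347 counts of miR-191-5p to 153 of miR-425-5p (exact 95% interval 141 to 195, counting error only). Both counts come from the same library, so depth does not enter the ratio. On the log2 scale the gap was 7.37. In replicate 1 no gap could be given, because Mir425 was not listed. The files hold called loci only, so its absence sets no upper limit on its level. Counts of different sequences were not calibrated against known amounts.

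Gaps in other miRNA clusters put this value in context. Of 34 named clusters of neighbouring hairpins, each hairpin taken by its most counted arm, 18 had at least 2 hairpins listed in replicate 2, and Mir191 with Mir425 had the second widest gap among them. The median of the other 17 was 6.71-fold, and 7 of the 17 exceeded 10-fold. In replicate 2 the remaining clusters had 1 listed hairpin (10 clusters) or none (6 clusters), so no gap could be given. The rank does not cover these, and a cluster whose weaker hairpin was not listed may have a wider gap. The gap above that of Mir191 and Mir425 was Mir29a over Mir29b-1, at 708-fold (95% interval 276 to 2601), which rests on 4 counts of Mir29b-1. Its arms miR-29b-1-5p and miR-29b-3p were both listed, each at 7.43 CPM. With both arms of each hairpin summed, the widest gap in replicate 2 was 354-fold, and Mir191 with Mir425 stayed second. Next below stood Mir181a-2 over Mir181b-2 at 110-fold (95.9 to 127), with 22351 and 203 counts. The mature sequences of Mir29b-1, Mir181a-2 and Mir181b-2 have a second hairpin, which makes their locus counts uncertain. This limit also reaches gaps behind the median. In replicate 2 Mir30e exceeded Mir30c-1 by 19.5-fold, with Mir30c-1 taken at 89 counts, the level of miR-30c-1-3p (165 CPM). miR-30c-5p, whose name carries no hairpin number, was counted at Mir30c-2 (3835 counts, 7128 CPM). That gap thus depends on the locus given to miR-30c-5p. How many other gaps share this limit was not tested.

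Among clusters with a narrower gap, Mir351 exceeded Mir322 by 53.2-fold (38.3 to 76.1) in replicate 2. Mirlet7c-1 exceeded Mir99a by 49.9-fold (43.6 to 57.3) in replicate 2 and by 80.0-fold (66.5 to 97.2) in replicate 1, and its mature sequence also has a second hairpin. The narrowest was the cluster of Mir143 and Mir145a, at 1.53-fold (1.39 to 1.68) in replicate 2 and 1.69-fold (1.53 to 1.87) in replicate 1, with opposite hairpins on top. Replicate 1 gave 14 clusters with at least 2 listed hairpins, whose median gap was 5.59-fold and whose widest was 80.0-fold. In that library Mir191 with Mir425 was 1 of 14 clusters with a single listed hairpin.

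**Figure D3:**
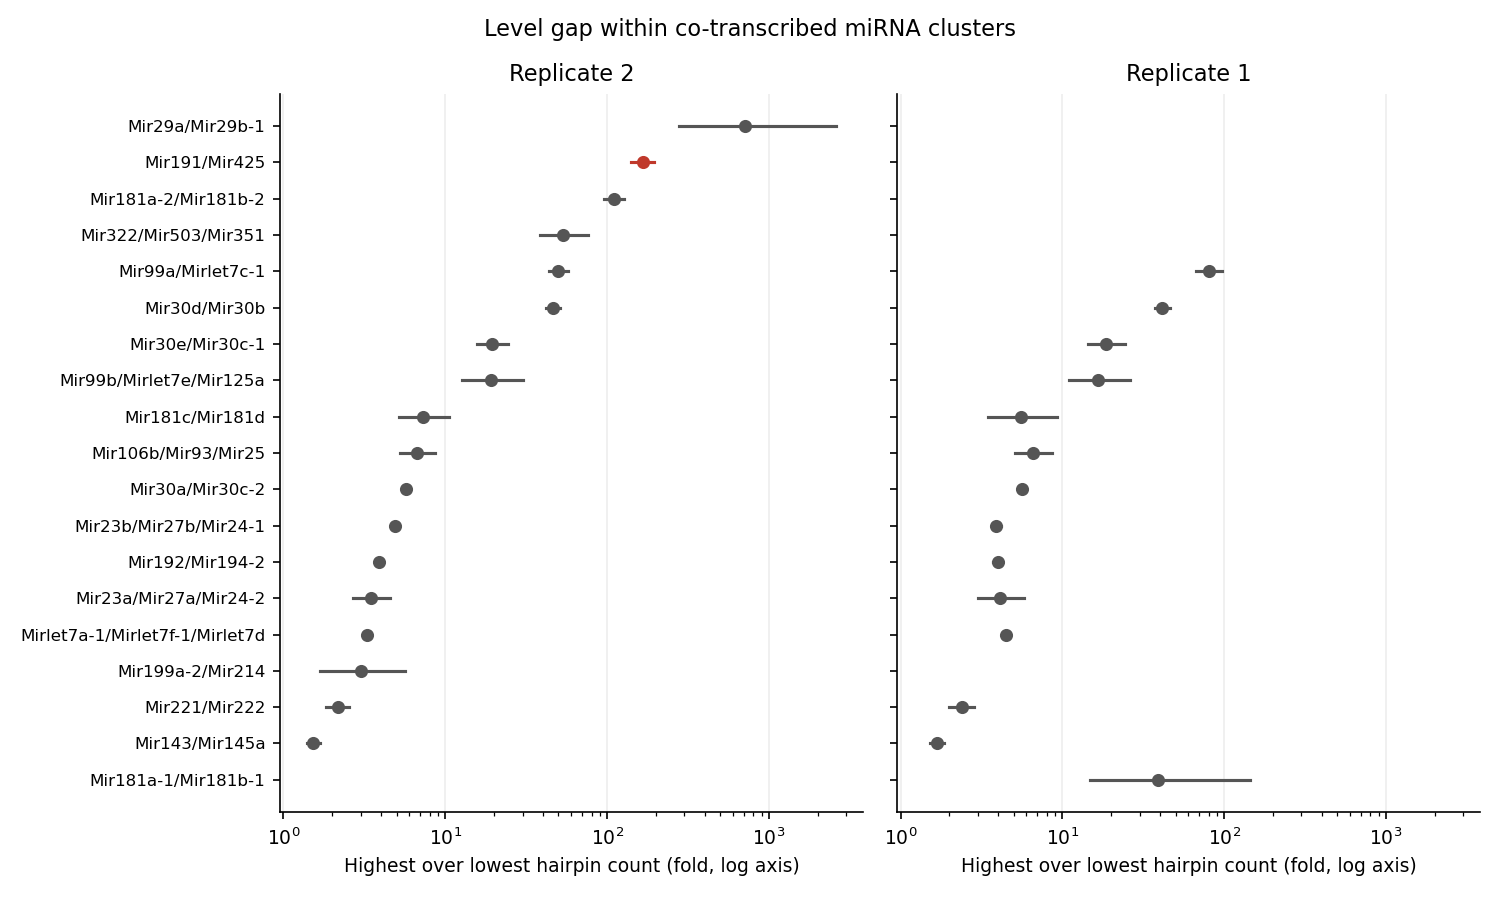
Highest over lowest hairpin count within each cluster that had at least 2 listed hairpins (fold, log axis), in replicate 2 (left) and replicate 1 (right). Points are gaps and bars exact 95% intervals for counting error. Mir191/Mir425 (red) stands at 166-fold in replicate 2, below Mir29a/Mir29b-1 at 708-fold, and has no point in replicate 1.

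Mir191 was read almost wholly from its 5p arm. In replicate 1 the Mir191 hairpin had 15018 counts of 5p and 2 of 3p, so that 3p took 0.0133% of its counts (95% interval 0.00161 to 0.0481). The median share of the lesser arm over the 60 hairpins with both arms listed was 1.81%, and 0.108% over those of them with at least 1000 counts in an arm. Mir22, with 0.00777%, and Mir181a-2, with 0.0105%, were the 2 hairpins below Mir191, both named after their values were seen. The interval of Mir191 spans both, and also Mir30a (0.0391%), Mir122 (0.0391%) and Mir192 (0.0448%) above it, so this order was not resolved. The share of Mir181a-2 is further uncertain because its 5p sequence has a second hairpin. In replicate 2, Mir191 was listed with its 5p arm alone. Of 35 hairpins with at least 1000 counts in an arm there, 24 had both arms listed, and Mir191 was second in count to Mir26a-1 among those with a single arm. Mir425 was likewise listed with its 5p arm alone, and these were 2 of 37 hairpins with 5p only among 118 in replicate 2.

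The 2 counts of miR-191-3p put it at a shared rank of 147 of 165 names in replicate 1, tied with 7 others, above the names with 1 count. Of the miRNAs listed in replicate 1 only, the nearest to it in count were miR-324-3p with 2, miR-129-5p with 3 and miR-16-1-3p with 1. Other names listed in replicate 1 only also had 1 count, so the place of miR-16-1-3p was shared. The listed sequence of miR-191-3p had 20 bases, shorter by the last bases of the RefSeq form, while miR-191-5p was listed with all 23 bases in both libraries. miR-425-5p was listed with 22 of its 23 bases.
miR-191-3p as listed: gCUGCACUuggauuucguuc
miR-425-5p as listed: aAUGACACgaucacucccguug

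The libraries did not list the same set of miRNAs. Replicate 2 alone listed 32 names with a median of 5.5 counts, and miR-425-5p was second among them. The others nearest to it in count were miR-365-3p with 302, miR-199a-5p with 48 and miR-1964-3p with 47. Of 79 names with at least 100 counts in replicate 2, only miR-365-3p and miR-425-5p were not listed in replicate 1. In the other direction 2 of 75 were missing, miR-1247-5p and miR-16-5p. The count of miR-16-5p in replicate 1 was 1321, above that of miR-425-5p in replicate 2.

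Most miRNAs with a count like that of miR-425-5p were listed in both libraries. At its share in replicate 2, miR-425-5p would have had 87.1 counts in replicate 1, and 88 of the 165 names listed in replicate 1 had fewer counts than that. Of 29 other names within 2-fold of it in replicate 2 (76.5 to 306 counts), 28 were listed in replicate 1, with 35 to 260 counts and a median of 114.5. No locus of replicate 1, named or unnamed, overlapped the Mir425 hairpin. The filters used in calling loci are unknown here, and their part in the missing listing was not tested.

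**Figure D4:**
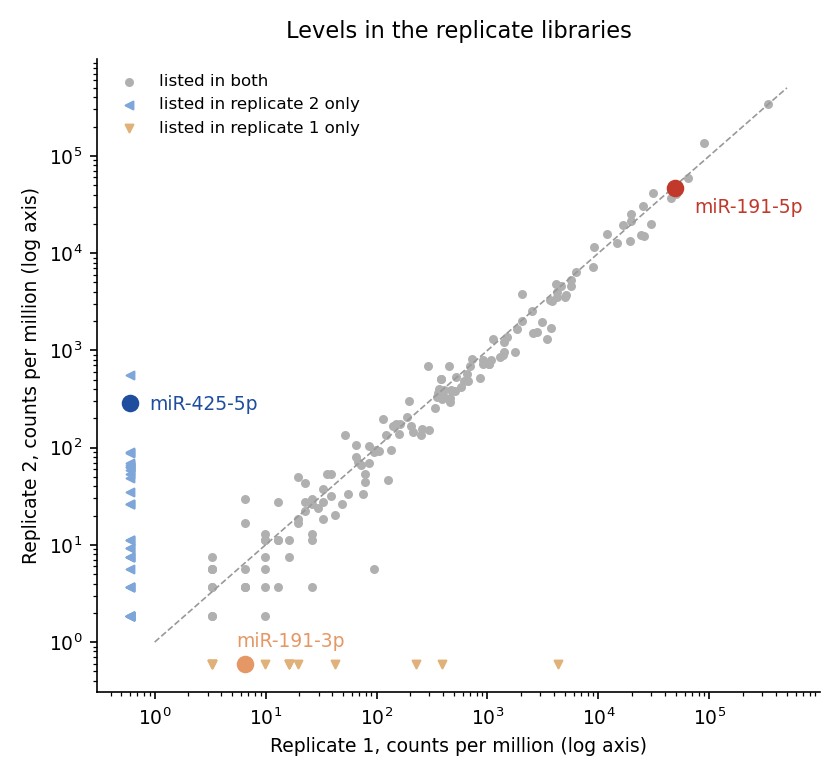
Levels in CPM of named miRNA counts in replicate 2 (vertical) against replicate 1 (horizontal), both on log axes, for every named miRNA. Grey points are listed in both libraries, and triangles at the margin are listed in 1 library only and have no value in the other. miR-191-5p lies near the dashed line of equal levels. miR-425-5p is the second highest point on the left margin.

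miR-191-5p differed little between the libraries. At TMM effective library sizes it had 49858 CPM in replicate 2 and 46322 in replicate 1, a log2 ratio of 0.11 (exact 95% interval 0.077 to 0.14, counting error only). A 2-sided exact binomial test was run on 131 of the 151 shared names, those whose counts summed to 10 or more, and with Benjamini-Hochberg adjustment it gave an adjusted p of 4.36e-12. This test called 44.3% of the tested miRNAs, and 21.4% as higher in replicate 2 (28 higher and 30 lower), and it compares these libraries and not conditions. Scaled to library totals instead, as in the CPM of the figures, the direction turned, to a log2 ratio of -0.057, and the calls were 19 higher and 45 lower. The difference was smaller than the spread between replicates, since edgeR's common coefficient of variation over these miRNAs was 0.229 and their median absolute log2 ratio 0.35. Of the 131, 24 had a smaller absolute ratio. Among the 15 with at least 5000 counts in each library, 2 did.

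The miRNAs most like miR-191-5p in level, by Euclidean distance of log2 CPM over the 2 libraries, were miR-30a-5p (0.22), miR-30d-5p (0.37), miR-26a-5p (0.52) and miR-181a-5p (0.68). With 2 libraries this measure reflects level more than any shared pattern. Their log2 ratios of replicate 2 to replicate 1 were -0.14, -0.11, 0.062 and 0.58, in that order. miR-181a-5p moved further between libraries than miR-191-5p did, with 22351 counts in replicate 2 and 9515 in replicate 1.

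The hairpin sequences listed with the members departed from RefSeq just after the 5p arm. They are shown with the differing bases in capitals, since these letters were not the same in the 2 libraries. The hairpins listed with the 5p arms begin at the first base of that arm, and positions are counted from 1 there.
Mir191 in replicate 2: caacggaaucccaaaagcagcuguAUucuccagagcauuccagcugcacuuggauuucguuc
Mir191 in replicate 1: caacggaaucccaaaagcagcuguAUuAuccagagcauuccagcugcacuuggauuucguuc
Mir425 in replicate 2: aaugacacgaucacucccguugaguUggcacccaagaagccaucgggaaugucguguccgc

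In Mir191 the differences from RefSeq were U25A and G26U in replicate 2, and U25A, G26U and C28A in replicate 1. The hairpin listed with miR-191-3p in replicate 1 began 1 base later and differed at the same 3 bases. In Mir425 the difference was G26U. All lay 2 to 5 bases after the annotated end of the 5p arm and none within a mature arm. The structure given in the files for the listed Mir191 hairpin had 23 base pairs and a terminal loop of 4 bases in replicate 2, but 19 base pairs and a loop of 17 bases in replicate 1. For Mir425 it had 19 base pairs and a loop of 11 bases.

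These departures were common to most listed hairpins. In replicate 2, 77 of 100 hairpins compared with RefSeq differed in at least 1 base, and in replicate 1, 68 of 91. Among hairpins with both arms annotated there were 133 differing bases in replicate 2 and 116 in replicate 1. Of these, 85.0% in replicate 2 and 84.5% in replicate 1 fell in the 6 bases after the 5p arm, a window chosen after the values were seen. The letter listed was A or U in 94.7% of cases in replicate 2 and 95.7% in replicate 1. No source used here says how the hairpin column was built, and what these letters come from was not tested. Whether the calling of loci or the counts of the mature arms used these letters is unknown here.

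**Figure D5:**
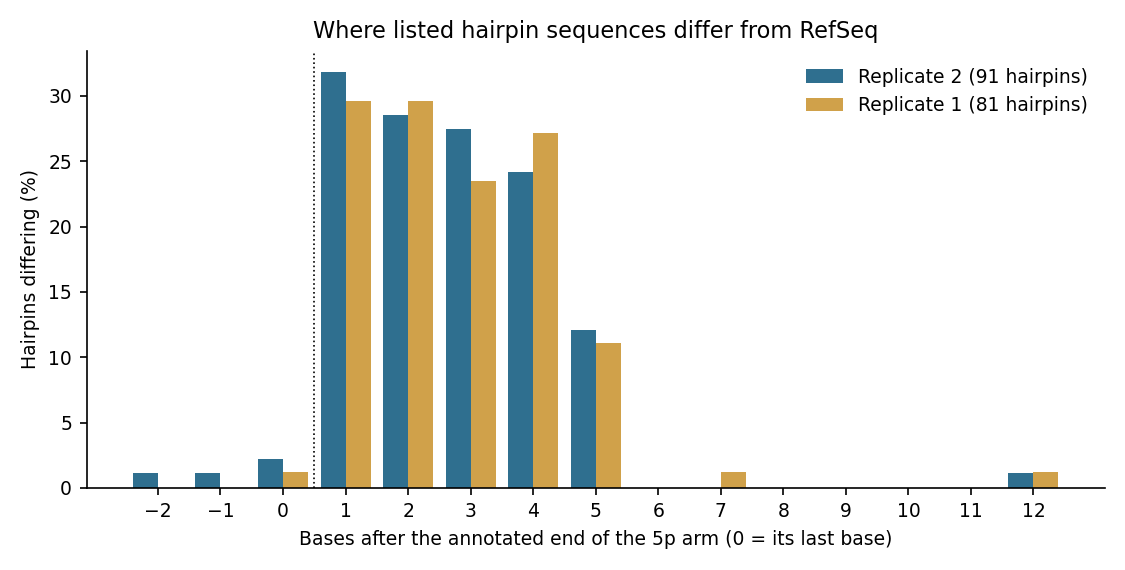
Share of listed hairpins (vertical, percent) whose base differs from RefSeq at each position after the annotated end of the 5p arm (horizontal), for replicate 2 and replicate 1. The differences cluster at positions 1 to 5, the stretch where those of Mir191 and Mir425 lie.

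The tissue label was checked against marker miRNAs, whose lists were chosen with earlier results of these data known. All 4 hepatocyte-enriched markers (miR-122-5p, miR-192-5p, miR-194-5p and miR-148a-3p) were listed, at a summed 5.11% of counts in replicate 2 and 4.79% in replicate 1. Of these, miR-122-5p held 3.04% in replicate 2 (rank 8) and 2.50% in replicate 1 (rank 10), below miR-191-5p in both. Of 5 immune markers 1 was listed, miR-150-5p, at 0.197% in replicate 2 and 0.311% in replicate 1. Both endothelial markers were listed, at 0.0355% in replicate 2 and 0.0444% in replicate 1. Of 4 erythroid markers miR-486b-5p was listed, in replicate 2 only, at 0.00260%. In bulk tissue, fewer cells of a type and less RNA per cell cannot be told apart, and the cells that hold miR-191 and miR-425 were not identified.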

How the data were processed

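Small RNA libraries were made from 1 group of 2 liver samples with an Illumina TruSeq small RNA kit from Trizol-isolated total RNA, per the labels' protocols. Bowtie 1.0.1, cutadapt 1.5, FastQC 0.11.2 and the build GRCm38 are named in the submitters' processing notes. The deposited values are whole-number raw counts per called miRNA locus, not normalised, per the file headers. No source used here gives the calling program, its filters or its treatment of reads with several positions. Replicate 2 held 220 loci and replicate 1 held 200. Of these, 33 and 32 carried no miRNA name (2.46% and 5.02% of listed counts) and were left out of totals and tests.

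Positions were raised by 1. The most counted locus stood for a name listed at several, and a name that a library lacked counted as not listed. The libraries were compared by a 2-sided exact binomial test at TMM sizes (edgeR 4.0.16), with a prior count of 0.5, for names listed in both with at least 10 counts summed. The threshold was an adjusted p of 0.05. This test was checked on simulated Poisson counts, which have no variation between replicates. The check therefore does not bear on how the test behaves with the spread between these libraries. No quasi-likelihood test was possible with 1 group. DESeq2 1.42.0 gave alternative size factors and dispersion, and SciPy 1.17.1 the exact intervals. Sequences are from RefSeq (GRCm38.p6) and the deposited files, and annotation from GENCODE M21 and RefSeq.

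The members, the 34 clusters and the marker lists were chosen with earlier results of these data known. The miRNAs named are the arms of both hairpins, their neighbours in the order of counts, the 4 nearest to miR-191-5p in level, and the 3 nearest in count to a member listed in 1 library only. They also include the 3 clusters with the widest gap, the 3 nearest to that of Mir191 and Mir425, and the narrowest. Mir30e with Mir30c-1 was named to show a limit of the locus counts.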

Additional observations from a re-analysis of the deposited data

How the results depend on the processing

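The level of miR-191-5p was 4.61% as a share of all listed counts, and 4.71% to 4.90% with either replicate left out. miR-425-5p averaged 0.0142% over both libraries when a missing arm was taken as a count of 0. The log2 ratio of miR-191-5p, replicate 2 to replicate 1, was -0.057 with library totals (adjusted p = 0.000358 by the exact binomial test), as the median ratio of all tested miRNAs moved to -0.19, and 0.11 to 0.16 under the other settings. The coefficient of variation between libraries was 0.352 with DESeq2's dispersion and 0.749 with missing miRNAs as 0. The number of miRNAs that differed was between 55 and 76, but the number tested also changed with the setting. Of 131 tested, 57 differed with DESeq2 size factors and 64 with library totals. With at least 50 counts summed 55 of 100 differed, with no minimum 57 of 151, and with missing miRNAs as 0 76 of 149. Summing arms could not change the gap, since both hairpins were listed in replicate 2 with 5p alone. It was also the second widest among the 22 clusters defined by a distance of 10 kb that had at least 2 hairpins listed in replicate 2. No paired analysis was possible because there is 1 group. A gap, an arm share and a level of miR-425-5p measured in 1 library have no replicate, and a miRNA that was not listed has no upper limit.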
